A study of Homo sapiens with 9 samples.

Results

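MYC and the factors that build ribosomes were examined in HCT116, an established line of human colorectal carcinoma cells, as 41 genes taken by symbol from a table of 31558 genes. The list holds the transcription factor MYC, 5 proteins of RNA polymerase I and its initiation machinery, 5 abundant nucleolar proteins, 7 proteins of the small nucleolar ribonucleoprotein particles (snoRNPs), 14 factors of the small ribosomal subunit and 9 of the large subunit. All 41 were found. Polyadenylated RNA was sequenced from 3 groups of 3 samples, described as biological replicates. The CRLM1-OE cells stably carried a plasmid for CRLM1, a long noncoding RNA studied in liver metastases of colorectal cancer, the Ctrl cells carried the empty plasmid, and the Anti cells carried a plasmid with the antisense sequence of CRLM1. All 3 groups were grown from the same parental line in the same medium. No source used here says that a group came from more than 1 derivation, so p-values measure the spread between samples within these lines.

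MYC is a transcription factor that binds DNA as a dimer with MAX, preferentially at the E-box, and genes for ribosome production are among its best known targets. Ribosome production starts in the nucleolus, where RNA polymerase I transcribes a long rRNA precursor. SnoRNPs then modify that precursor, and a sequence of assembly factors folds and cleaves it into the RNAs of the small and the large subunit. In colorectal cancer cells with an active Wnt pathway, MYC is a known Wnt target.

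The samples held 33302292 to 44514692 counted reads. The CRLM1 count was 32751 to 38704 with overexpression, 0 in each Ctrl sample and 1540 to 1951 with the antisense plasmid, which carries the same sequence on the other strand. Of 10 markers of colon epithelium, 7 reached an FPKM (fragments scaled by exon length and by the mapped fragments of the sample) of at least 1 in every sample, while VIL1, CDX1 and LGALS4 stayed below 0.1. Markers of other cell types were low, with a summed FPKM of at most 2.5 for fibroblasts, 2.04 for leukocytes and 0.14 for endothelium. COL1A1 made up most of the fibroblast sum, which was 2.07 to 2.5 in CRLM1-OE, 1.19 to 1.28 in Ctrl and 1.27 to 1.42 in Anti. Mitochondrially encoded genes took 5.625 to 5.706% of the counts in CRLM1-OE, 6.388 to 6.54% in Ctrl and 7.168 to 7.282% in Anti, and the part of this in the values below was not tested. In bulk RNA, a lower level can come from fewer cells that express a gene or from less RNA per cell, and these cannot be told apart.

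An E-box, here the letters CACGTG, which read the same on both strands, was looked for in the promoters of the members. RefSeq promoters (GRCh38.p14, 250 bases before the transcription start and 50 after) were matched for 34 of the 41 genes. BOP1, DDX18, MYC, NOLC1, NOP58, RRP12 and RRS1 had no entry. The E-box stood in 12 of the 34 promoters (35.3%), against 7.43% of all 27305 promoters and 10.2% of the 9870 promoters of genes that reached 10 counts in all samples. The GC box GGGCGG, searched on both strands, stood in 76.5% of the members' promoters, in 44.6% of all promoters and in 71.2% of those of genes with at least 10 counts. The first E-box began between 10 bases before the start (UTP20) and base 36 after it (NOP2). The 12 sites are shown because they lie so near the start. Each line gives 30 bases on the gene's strand, 5′ to 3′, with the E-box in capitals:
FBL, chr19:39846359-39846388, minus strand: gcctgcgctcttttcCACGTGcgaaagccc
RRP9, chr3:51941895-51941924, minus strand: ggagggttcagctgcCACGTGagttctgcg
NOP14, chr4:2963377-2963406, minus strand: ggttccgcggcccggCACGTGtcttagggt
PES1, chr22:30591883-30591912, minus strand: gggtccttggcagggCACGTGcgggaggaa
WDR43, chr2:28894655-28894684, plus strand: ctgcgcacggacgaaCACGTGgctgcagcg
UTP20, chr12:101280080-101280109, plus strand: gttcttttttccgtcCACGTGacccactca
LTV1, chr6:143843351-143843380, plus strand: cgggtcctggggctgCACGTGtggtgaggc
BYSL, chr6:41921512-41921541, plus strand: cctttcttcagtcccCACGTGcgatccttc
PNO1, chr2:68157882-68157911, plus strand: cgtggtgcagctgcgCACGTGtttcagccg
MYBBP1A, chr17:4555343-4555372, minus strand: gctggggccggagcaCACGTGtttcgtgtt
NOP2, chr12:6568242-6568271, minus strand: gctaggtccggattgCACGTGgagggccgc
NOL6, chr9:33473897-33473926, minus strand: ttaggcatttccgccCACGTGggaagctat
These are matches of letters in a short window, and no measurement of MYC binding was used.

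All 41 members were expressed, with between 329 counts (the lowest UTP20 sample) and 39407 counts (the highest NPM1 sample). Per length, the highest mean FPKM in the Ctrl cells was that of FBL, at 399.2 ± 12.2 (SD, n = 3), followed by NPM1 at 298.6 ± 5.09, NOB1 at 173.7 ± 5.05 and MYC at 151.6 ± 1.16. The lowest were POLR1A at 5.73, DDX10 at 4.15 and UTP20 at 1.07. The share of all reads that fell on the members was 0.546, 0.545 and 0.547% with CRLM1 overexpression, 0.606, 0.59 and 0.591% with the empty plasmid, and 0.646, 0.643 and 0.644% with the antisense plasmid. The groups did not overlap, and CRLM1-OE was lowest. After scaling by the trimmed mean of M values (TMM), the members summed to between 5179.1 and 5225.3 CPM, reads of a gene scaled to a fixed library size, in CRLM1-OE, 6189.7 and 6376.5 in Ctrl and 6392.9 and 6430.9 in Anti.

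**Figure D1:**
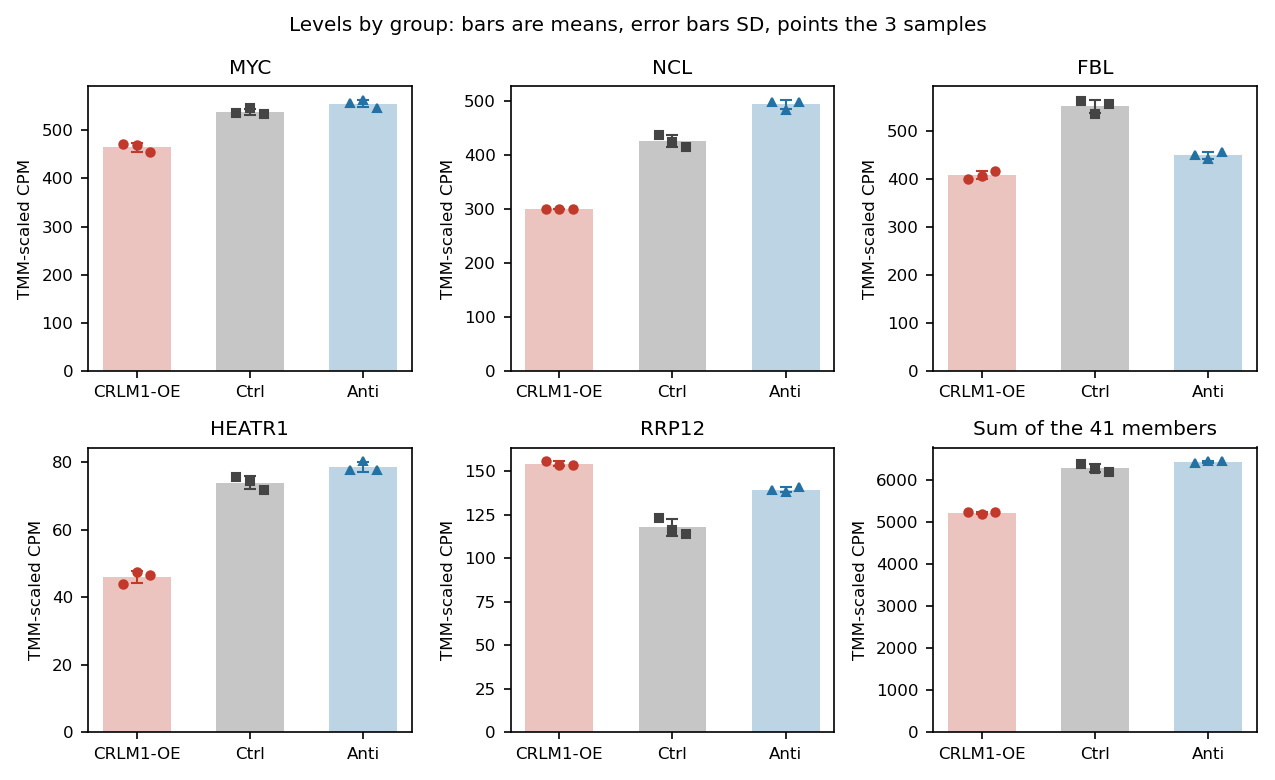
TMM-scaled CPM (linear axis from 0) of MYC, NCL, FBL, HEATR1, RRP12 and the sum of the 41 members in the 3 groups. Bars are means, error bars are SD and points are the 3 samples. The CRLM1-OE samples lie below both other groups in each panel except RRP12, where they lie above both.

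The first comparison asked how the members differed between CRLM1-OE and the empty plasmid. With edgeR's quasi-likelihood test and a Benjamini-Hochberg adjustment over all genes tested, 34 of the 41 members were lower in CRLM1-OE at an adjusted p of at most 0.05, 3 were higher and 4 did not pass. Over all 29846 genes tested, 16.8% were lower and 15% were higher, and among the 14833 genes that reached 10 counts in each of the 6 samples these shares were 32.7% and 27%. No member reached a 2-fold change, the threshold of the study, which 0.915% of all genes tested passed as lower and 2.5% as higher. The median log2 fold change of the members was -0.265, beside 0.017 over all genes tested and -0.026 over genes with at least 10 counts. These counts moved with the scaling. With total counts in place of TMM, 23 members were lower and 7 higher, and 6 members changed sign. MYBBP1A and TSR1, which were not called with TMM, were then called higher (adjusted p = 0.00053 and 0.015), and NOP16, NOLC1, WDR75 and DDX56 turned to values above 0 that did not pass. That scaling moved the median of the genes with at least 10 counts from -0.026 to 0.116 and the share of higher genes among all called from 47.1 to 69.3%. Relative to that median the members stood at -0.239, and 36 of 41 lay below it. A scaling factor moves all genes by about the same amount, so these 2 values hardly depend on the scaling by construction.

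MYC was lower in CRLM1-OE. It had 472, 469 and 454.2 CPM in the CRLM1-OE samples and 535.3, 546 and 534.6 CPM in Ctrl. The groups did not overlap, and the log2 fold change was -0.21 ± 0.022 (SE, adjusted p = 2.2e-21, edgeR quasi-likelihood). The size of this change depended on the scaling. MYC was at -0.07 with total counts (adjusted p = 0.0046, edgeR) and at -0.096 in limma on log2(FPKM + 0.1) (adjusted p = 0.024). Of its exon bases, 3.18% are shared with CASC11 on the opposite strand.

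Of RNA polymerase I and its factors, 3 of 5 were lower, 1 was higher and 1 did not pass. POLR1B, the second largest subunit of the enzyme, fell by 0.41 on the log2 scale. RRN3, which brings the polymerase to its promoter, fell by 0.33, with 3 pseudogenes in the table that together held 8.59% as many counts. The largest subunit, POLR1A, fell by 0.15, and this call was lost under total counts (log2 fold change -0.014, adjusted p = 0.8). UBTF, the factor that binds along rDNA and keeps it open for transcription, went the other way. It had 63.7, 62.1 and 60.2 CPM in CRLM1-OE and 55.3, 53.3 and 53.5 in Ctrl. All 3 CRLM1-OE samples lay above the Ctrl samples, with a log2 fold change of 0.20 ± 0.038 (adjusted p = 1.2e-06, edgeR). POLR1C, a subunit that RNA polymerases I and III share, had overlapping groups.

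Among the abundant nucleolar proteins, 4 of 5 were lower and 1 did not pass. NCL (nucleolin), a protein that binds the rRNA precursor, lies on chromosome 2 (231453531 to 231483641, minus strand, GRCh38). It had 299.9, 299.4 and 299.9 CPM in CRLM1-OE and 437.7, 424.4 and 415.3 in Ctrl. The lowest Ctrl sample was far above every CRLM1-OE sample, and the log2 fold change was -0.51 ± 0.023 (adjusted p = 7.4e-105, edgeR). NPM1 (nucleophosmin), a chaperone of the granular part of the nucleolus, had 772.5, 761.1 and 787.9 CPM in CRLM1-OE and 931.1, 927.6 and 904.9 in Ctrl. These groups were also separate, at a log2 fold change of -0.25 ± 0.02 (adjusted p = 4.3e-36, edgeR). The GTP-binding protein GNL3 (nucleostemin) fell by 0.41 and the RNA helicase DDX21 by 0.40. MYBBP1A, a protein that binds MYB, had overlapping groups.

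All 7 snoRNP proteins were lower, although NOLC1 was at 0.036 under total counts. FBL (fibrillarin), the methyltransferase of the box C/D particles, had 401.1, 405.8 and 417.6 CPM in CRLM1-OE and 563.2, 536.8 and 557.1 in Ctrl. The log2 fold change was -0.44 ± 0.022 (adjusted p = 5e-87, edgeR), with no overlap of the groups. Its partners in the same particles, NOP56 and NOP58, fell by 0.33 and 0.23. Of the H/ACA particles, which isomerize uridine, GAR1 fell by 0.44, NHP2 by 0.22 and the pseudouridine synthase DKC1 by 0.15. NOLC1, a snoRNP chaperone, fell by 0.11. Under total counts NOP58 stood at -0.088 (adjusted p = 0.2) and DKC1 at -0.006 (adjusted p = 0.93).

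The 14 small subunit factors held both ends of the range, with 11 lower, 2 higher and 1 that did not pass. HEATR1 (UTP10), a large scaffold of the small subunit processome on chromosome 1 (236549005 to 236604516, minus strand), had 43.9, 47.4 and 46.5 CPM in CRLM1-OE and 75.5, 74.3 and 71.8 in Ctrl. At -0.69 ± 0.038 (adjusted p = 1.8e-71, edgeR) it had the lowest log2 fold change of the members. Its annotation shares 23.1% of its exon bases with LGALS8 on the other strand, and the use of strand in counting is not stated. The same holds for NHP2 (28% shared, with RMND5B), TSR1 (26.9%, with SRR and another gene), NOP14 (20.7%), NOP16 (18.6%) and POLR1C (18.3%). NOP14, another processome protein, had 114.7, 114.5 and 116.3 CPM in CRLM1-OE and 177.7, 170.7 and 166.6 in Ctrl. Its log2 fold change was -0.58 ± 0.028 (adjusted p = 5.1e-89, edgeR), and the antisense gene NOP14-AS1 held 10.2% as many counts as NOP14. RRP9, which binds the U3 snoRNA, had 70.5, 69.4 and 74.5 CPM against 100.8, 104.5 and 101.3. Its log2 fold change was -0.51 ± 0.033 (adjusted p = 4e-53, edgeR).

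WDR43 fell by 0.44, DDX10 by 0.41, UTP20 by 0.33, LTV1 by 0.29, BYSL by 0.28, NOB1, the endonuclease that makes the last cut of the small subunit rRNA, by 0.26, and PNO1, its partner, by 0.20. The calls of UTP20 (adjusted p = 0.071), LTV1 (adjusted p = 0.087) and PNO1 (adjusted p = 0.29) were lost under total counts, and UTP20 also in limma on FPKM (adjusted p = 0.21 and 0.22). TSR1 missed the threshold (adjusted p = 0.16, edgeR). WDR75 was lower by 0.12 with overlapping groups (adjusted p = 0.044, edgeR), a call that was lost under RLE factors (adjusted p = 0.07). RRP12 and NOL6 went against the rest of their role. RRP12, an export factor of the small subunit on chromosome 10 (97356358 to 97426076, minus strand), had 155.9, 153.6 and 153.6 CPM in CRLM1-OE and 123.2, 116.4 and 113.8 in Ctrl. Its log2 fold change of 0.39 ± 0.029 (adjusted p = 3.4e-40, edgeR) was the highest of the members. NOL6 (UTP22), a processome protein, had 45.4, 42.3 and 43.4 CPM against 35, 33.4 and 34, a log2 fold change of 0.36 ± 0.045 (adjusted p = 1e-14, edgeR). Both were above 0 under every alternative, and so was UBTF.

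Of the 9 large subunit factors, 8 were lower and 1 did not pass. The helicase DDX18 fell by 0.51. The complex of PES1, BOP1 and WDR12, which processes the spacer next to the large subunit rRNA, was lower in all of its subunits, by 0.47 for PES1, 0.21 for BOP1 and 0.27 for WDR12. Under total counts PES1 was at -0.32, BOP1 at -0.066 and WDR12 at -0.13, and all were still called lower. RRS1, which helps load the small rRNA of the large subunit, had 37.1, 37.8 and 36.3 CPM in CRLM1-OE and 46.4, 47.2 and 48.2 in Ctrl, and fell by 0.35. RRP1 fell by 0.15, DDX56 by 0.13 and NOP16 by 0.10, the last with overlapping groups. Under total counts RRP1 was at -0.014 (adjusted p = 0.84), and the calls of DDX56 and NOP16 were lost as well. NOP2, an rRNA methyltransferase, had 95.8, 93.5 and 93.1 CPM in CRLM1-OE and 88.4, 90.4 and 89.8 in Ctrl, and missed the threshold (adjusted p = 0.065, edgeR) although its groups did not overlap. Over all members the groups did not overlap for 33 with CRLM1-OE lower and 4 with it higher, against 19.3% and 18.3% of all genes tested. Here and in the other comparisons, these shares include many genes with fewer counts than any member. The shares without overlap among genes with at least 10 counts were not taken.

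**Figure D2:**
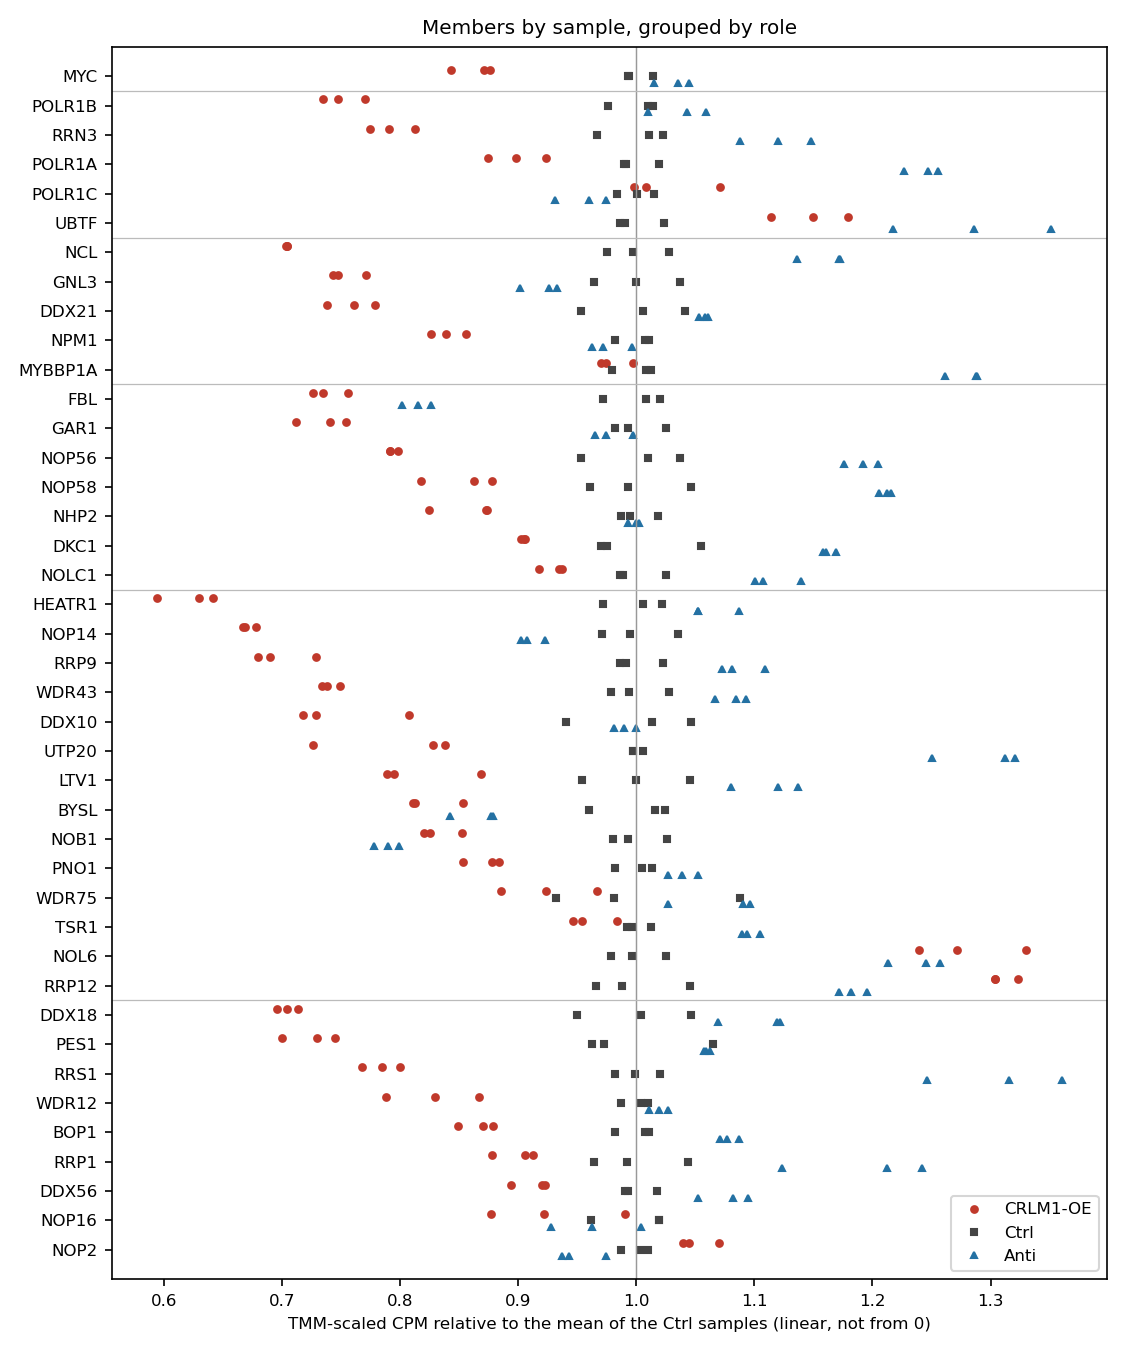
TMM-scaled CPM of each member in each of the 9 samples, divided by the mean of its 3 Ctrl samples (linear axis that does not start at 0). Rows are grouped by role, from MYC at the top through RNA polymerase I, nucleolar, snoRNP and small subunit proteins to large subunit factors. Most CRLM1-OE points (circles) lie left of the Ctrl points (squares), and RRP12, NOL6 and UBTF lie to the right.

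The second comparison set CRLM1-OE against the antisense control. Here 34 members were lower, 4 were higher and 3 did not pass, with none at 2-fold. The groups did not overlap for 34 with CRLM1-OE lower and 4 with it higher, against 21% and 20.1% of all genes tested. Of the 30183 genes tested, 18.5% were lower and 17.1% higher (35.3% and 31.2% of the 14900 genes with at least 10 counts), and 2.56% and 3.09% of all passed at 2-fold. The median log2 fold change was -0.360 over the members and -0.023 over all genes tested. The same CRLM1-OE samples enter both comparisons, so that their values are given side by side and not as a repeat. With total counts 34 members were lower and 5 higher, NOP16 changed sign without passing, and the members stood at -0.337 relative to the genes with at least 10 counts.

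MYC had 557.6, 562.6 and 546.5 CPM in the Anti samples, each above the CRLM1-OE samples, and its log2 fold change was -0.25 ± 0.019 (adjusted p = 4.9e-40, edgeR). NCL had 499, 483.6 and 499.2 CPM in Anti, and its log2 fold change of -0.72 ± 0.02 was the third lowest of the members (adjusted p = 1.1e-278, edgeR). NPM1 had 886.4, 918 and 895.5 CPM in Anti (-0.21 ± 0.017, adjusted p = 2.1e-35, edgeR). FBL had 450, 442.5 and 456.3 CPM in Anti, close above its level in CRLM1-OE, at a log2 fold change of -0.14 ± 0.019 (adjusted p = 2.2e-11, edgeR). FBL thus stood at -0.44 against the empty plasmid and at -0.14 against the antisense plasmid, whereas NCL stood at -0.51 and -0.72.

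HEATR1 was again the lowest, with 77.7, 80.3 and 77.7 CPM in Anti and a log2 fold change of -0.77 ± 0.036 (adjusted p = 1.5e-102, edgeR). RRS1 followed, with 64.3, 58.9 and 62.2 CPM in Anti and -0.73 ± 0.039 (adjusted p = 8.3e-76, edgeR). All 5 abundant nucleolar proteins and all 7 snoRNP proteins were lower, the second group between -0.58 (NOP56) and -0.14 (FBL). In the first group DDX21 fell by 0.47, MYBBP1A by 0.38 and GNL3 by 0.28. Of RNA polymerase I and its factors, RRN3 fell by 0.49, POLR1A by 0.47, POLR1B by 0.46 and UBTF by 0.16. UBTF was therefore higher than in the empty plasmid cells and lower than in the antisense cells, and the second call was lost in limma on log2(FPKM + 0.1) (adjusted p = 0.099). POLR1C, with 41.9, 41.5 and 44.5 CPM in CRLM1-OE and 40.5, 38.7 and 39.9 in Anti, was higher by 0.11 ± 0.042 (adjusted p = 0.036, edgeR), a call that DESeq2 did not make (adjusted p = 0.058).

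Among the small subunit factors, 10 of 14 were lower, 2 were higher and 2 did not pass. UTP20, with 9.46, 9.58 and 8.3 CPM in CRLM1-OE, fell by 0.70, RRP9 by 0.63, WDR43 by 0.54, and NOP14 and LTV1 by 0.44 each. DDX10 fell by 0.39, PNO1 by 0.25, WDR75 by 0.21 and TSR1 by 0.19. RRP12 had 139.2, 138 and 140.8 CPM in Anti, below every CRLM1-OE sample, and was higher in CRLM1-OE by 0.15 ± 0.026 (adjusted p = 1.8e-08, edgeR). NOB1, with 292.3, 303.7 and 294 CPM in CRLM1-OE, was higher by 0.08 (adjusted p = 0.0006, edgeR), after having been lower against the empty plasmid. NOL6 and BYSL had overlapping groups. Of the large subunit factors, 7 of 9 were lower, among them DDX18 by 0.64, PES1 by 0.54, RRP1 by 0.40, BOP1 by 0.31, WDR12 by 0.29 and DDX56 by 0.23. NOP2 had 84.4, 83.9 and 87.2 CPM in Anti, below CRLM1-OE in every sample, at a log2 fold change of 0.15 ± 0.03 (adjusted p = 4.3e-06, edgeR). NOP16 had overlapping groups.

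**Figure D3:**
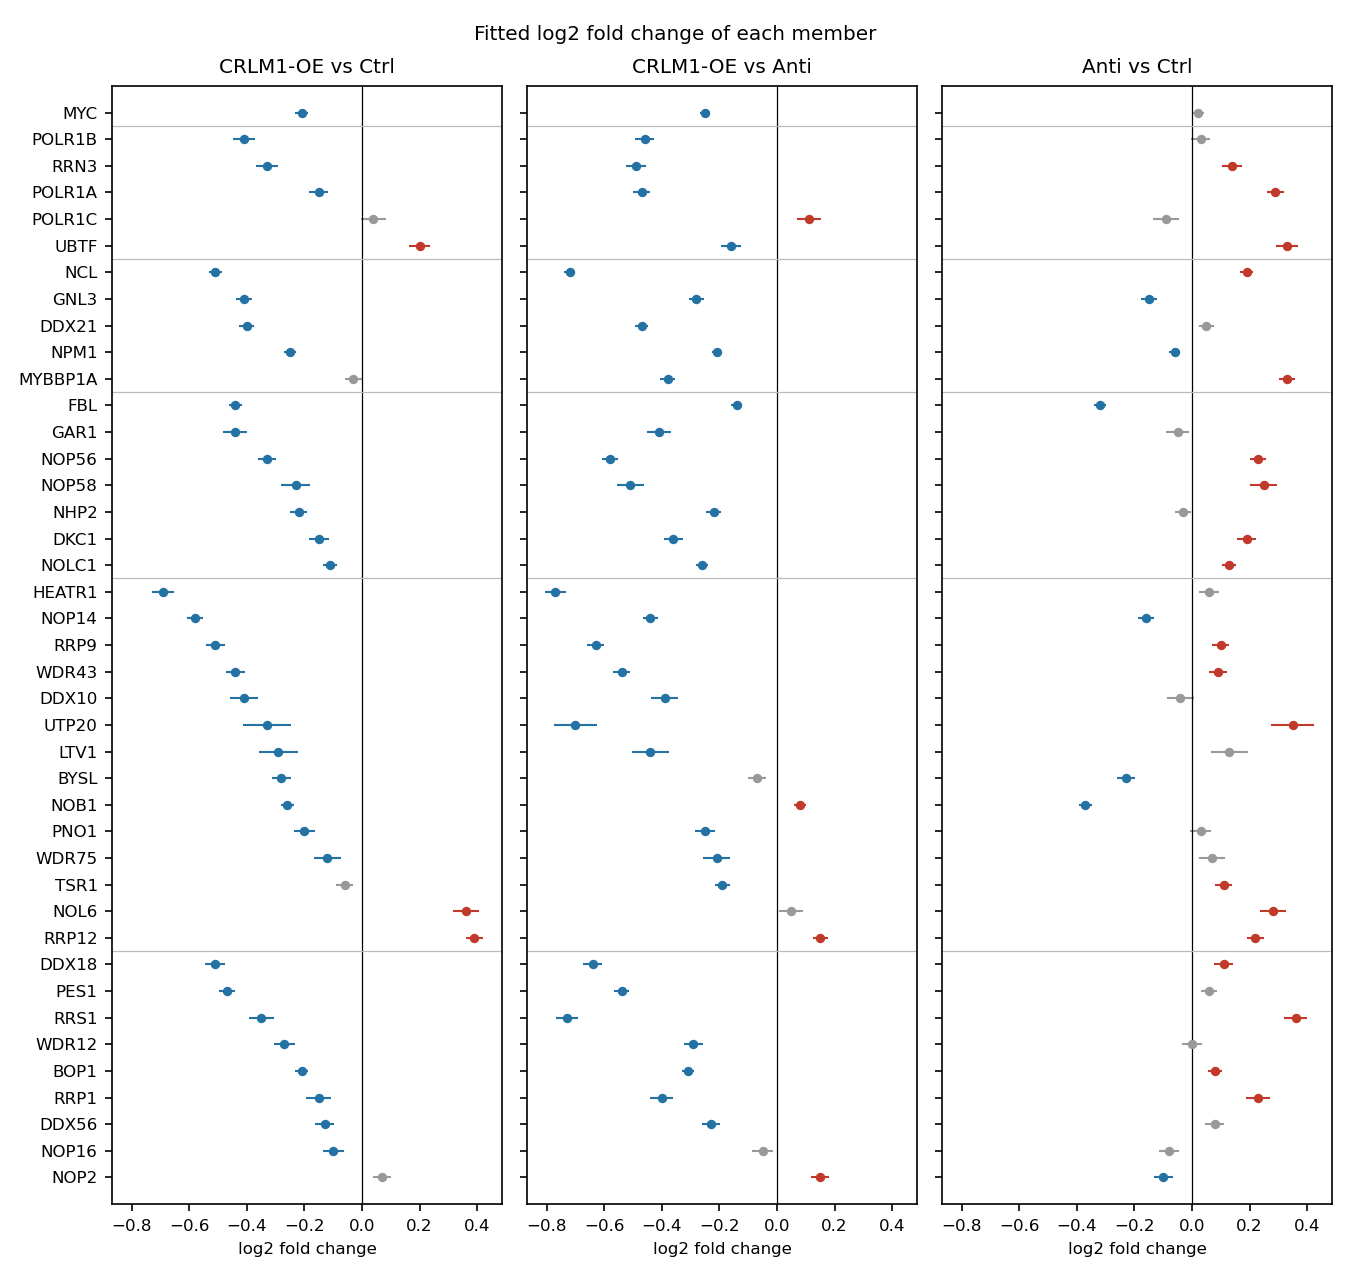
Fitted log2 fold change of each member with its standard error (bars) in the 3 comparisons, on 1 shared axis and in the same order of roles. Blue points passed an adjusted p of 0.05 as lower, red as higher, and grey did not pass. In the 2 comparisons of CRLM1-OE 34 points are blue, while in Anti against Ctrl 19 are red and 7 blue.

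The antisense and the empty plasmid cells, both controls, also differed from each other. Of the 41 members, 19 were higher in Anti, 7 were lower and 15 did not pass, with none at 2-fold. The groups did not overlap for 26 with Anti higher and 7 with it lower, against 16.9% and 14% of all genes tested. Of the 29714 genes tested, 11.5% were higher and 12.2% lower (21.8% and 23.8% of the 14842 genes with at least 10 counts), and 0.683% and 0.38% of all passed at 2-fold. The median log2 fold change was 0.080 over the members and 0.005 over all genes tested. Under total counts 30 members were higher and 3 lower, and 7 changed sign. NHP2 was then called higher (adjusted p = 0.023), while NPM1, NOP2, DDX10, GAR1, NOP16 and POLR1C turned above 0 without passing. The share of higher genes among all called went from 48.4 to 73.1%. Relative to the genes with at least 10 counts, whose median that scaling moved from 0.002 to 0.107, the members stood at 0.078 under TMM.

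MYC did not pass in this comparison, at 0.02 ± 0.021 (adjusted p = 0.58, edgeR). Its lowest Anti sample (546.5 CPM) lay just above its highest Ctrl sample (546 CPM). These CPM are scaled over all 9 samples, whereas the fit used factors from its 6 samples. Under total counts its log2 fold change was 0.12 (adjusted p = 1.3e-08). NCL rose by 0.19 ± 0.022 (adjusted p = 1.4e-16, edgeR). FBL fell by 0.32 ± 0.021 (adjusted p = 6.3e-49, edgeR), and NPM1 fell by 0.06 ± 0.019 with overlapping groups (adjusted p = 0.011, edgeR). The particle partners of FBL went the other way, NOP56 at 0.23 and NOP58 at 0.25.

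The highest members were RRS1 at 0.36 ± 0.039 (adjusted p = 5.7e-19), UTP20 at 0.35 ± 0.075 (adjusted p = 2.9e-05) and UBTF at 0.33 ± 0.037 (adjusted p = 7.5e-18, edgeR in each case). UTP20 was read at low depth, with 14.3, 15 and 15.1 CPM in Anti and 11.4, 11.5 and 11.4 in Ctrl. UBTF had 65.8, 69.5 and 73 CPM in Anti. MYBBP1A rose by 0.33, POLR1A by 0.29, NOL6 by 0.28, RRP1 by 0.23 and RRP12 by 0.22. The other called members that rose, DKC1, RRN3, NOLC1, TSR1, DDX18, RRP9, WDR43 and BOP1, lay between 0.08 (BOP1) and 0.19 (DKC1). NOB1 was lowest, with 277.2, 284.9 and 281.5 CPM in Anti and 365.8, 349.5 and 354 in Ctrl, a log2 fold change of -0.37 ± 0.023 (adjusted p = 1.8e-53, edgeR). In the annotation it shares 20.4% of its exon bases with NQO1-DT on the opposite strand. BYSL, a small subunit factor, had 88.8, 85.1 and 88.6 CPM in Anti and 102.7, 97 and 103.5 in Ctrl (-0.23 ± 0.032, adjusted p = 3.2e-12, edgeR). NOP14 fell by 0.16, GNL3 by 0.15 and NOP2 by 0.10.

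Set side by side, the calls of the 3 comparisons fell into 12 patterns. Each group enters more than 1 comparison, so the 3 calls of a member are not independent. The difference between the controls nearly follows from those of CRLM1-OE against each. The shares of all genes with these patterns were not taken, so the counts below have no background beside them. The most frequent pattern, lower in CRLM1-OE than in both controls and higher in Anti than in Ctrl, held 14 members: NCL, NOP56, NOP58, DKC1, NOLC1, POLR1A, RRN3, BOP1, WDR43, RRP1, RRP9, RRS1, DDX18 and UTP20. Of these, NOP58, DKC1, NOLC1, POLR1A, RRP1 and UTP20 were not called in CRLM1-OE against Ctrl under total counts. A further 13, MYC and HEATR1 among them, were lower in CRLM1-OE than in both controls, which did not differ past the threshold with TMM. Under total counts all of these 13 except GAR1 and DDX10 were called higher in Anti than in Ctrl. WDR75, DDX56, PNO1 and LTV1 were then also not called in CRLM1-OE against Ctrl. NPM1, FBL, NOP14 and GNL3 were lower in CRLM1-OE than in both controls and lower in Anti than in Ctrl with TMM. Of these 4, FBL kept the lower call in Anti under total counts, where NOP14 (-0.056, adjusted p = 0.12) and GNL3 (-0.041, adjusted p = 0.33) did not pass and NPM1 was at 0.046 (adjusted p = 0.052). With TMM, RRP12 was the 1 member called higher in CRLM1-OE than in both controls, and with total counts NOL6, NOP2 and POLR1C were called so too.

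**Figure D4:**
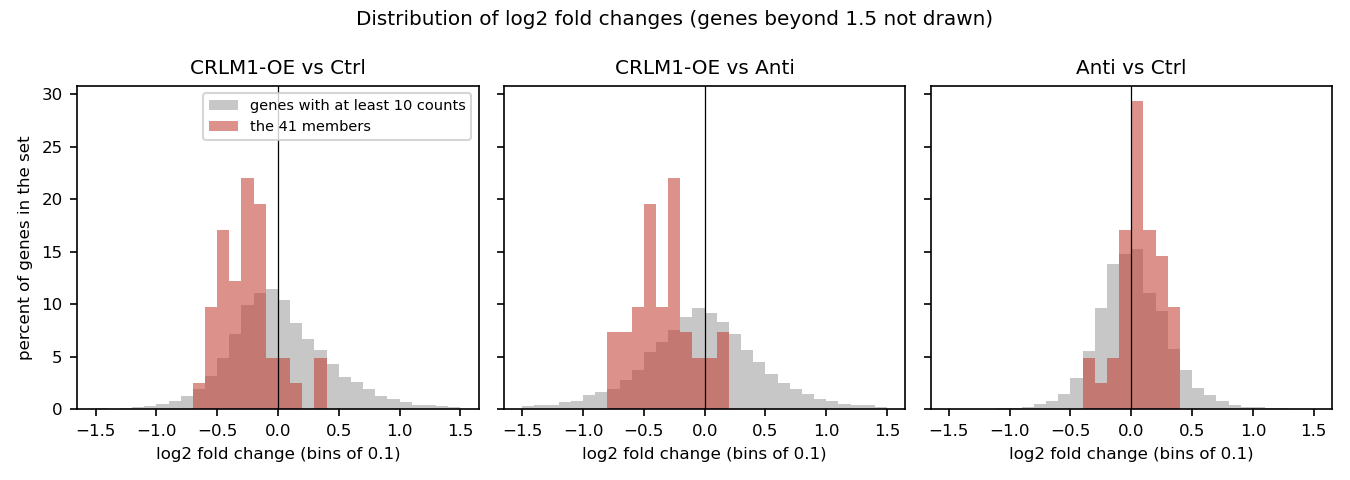
Share of genes (percent, linear axis) in bins of 0.1 of the log2 fold change, for the 41 members (red) and for all genes that reached 10 counts in each of the 6 samples (grey). The members' medians are -0.265, -0.360 and 0.080 from left to right. Genes beyond 1.5 in either direction, at most 1.37% of the grey set and no member, are not drawn.

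Members with and without the E-box of the promoter window were counted apart in CRLM1-OE against Ctrl. With it, 9 of 12 were lower, 1 higher (NOL6) and 2 did not pass, at a median log2 fold change of -0.310. Without it, 19 of 22 were lower, 1 higher and 2 did not pass, at a median of -0.255. Against Anti, 9 of 12 and 19 of 22 were lower, with medians of -0.410 and -0.325. Among the 3 lowest members, RRP9 and NOP14 held an E-box, and HEATR1, the lowest, held none in its window. Among the 3 highest, NOL6 held the same letters at base 14, UBTF held none, and RRP12 had no promoter entry. Across the 41 members the log2 fold change of CRLM1-OE against Ctrl had a Spearman correlation of 0.29 with the GC content of the longest transcript and 0.10 with its length, beside 0.22 and 0.03 over 14520 genes that passed the same minimum in all 9 samples. In Anti against Ctrl the correlation with length was 0.40 over the members and 0.23 over those genes. These are descriptions across genes of the same libraries, and genes are not independent replicates.

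Beyond the members, 141 other factors of ribosome production in 5 lists gave 88 lower, 21 higher and 32 not passed in CRLM1-OE against Ctrl, and 85, 29 and 27 against Anti. In Anti against Ctrl 37 were higher, 43 lower and 61 did not pass. Of the genes that reached 10 counts, 32.7% were lower and 27% higher in CRLM1-OE against Ctrl, and 35.3% and 31.2% against Anti. In Anti against Ctrl 21.8% were higher and 23.8% lower. The counts of each list are to be read beside these shares. The small subunit processome had 31 of 42 lower and 5 higher in CRLM1-OE against Ctrl, from UTP15 at -0.64 and DIEXF at -0.55 to NOM1 at 0.40. In the same comparison 30 of 47 factors of the large subunit were lower and 5 higher, DDX31 (-0.68) and GNL3L (-0.61) lowest. Of the RNA exosome and RNase MRP, which trim and cut rRNA precursors, 13 of 23 were lower and 4 higher. RNA polymerase I and its factors had 10 of 17 lower and 4 higher, from TBP (-0.42) to TAF1C (0.67) and PTRF (0.70), the last also a coat protein of caveolae. Against Anti this list had 6 of 17 lower and 7 higher. The snoRNP assembly factors had 4 of 12 lower and 3 higher against Ctrl. In both cases the share of lower genes was close to that of all genes with 10 counts. Against Anti the snoRNP assembly factors had 5 of 12 lower and 6 higher. The higher counts of both lists against Anti stand beside 31.2% of the genes with 10 counts.

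Around MYC itself, its dimer partner MAX fell with it in CRLM1-OE, by 0.61 against Ctrl (35.6 ± 0.494 and 54.5 ± 1.24 CPM, SD, n = 3) and by 0.66 against Anti, while MAX stood at 0.03 in Anti against Ctrl (adjusted p = 0.69, edgeR). MNT, a repressor that also pairs with MAX, stood at 0.07 and 0.05 and passed in neither (adjusted p = 0.33 and 0.43, edgeR). Of the 11 genes of the MYC network tested against Ctrl, 4 were lower and 6 higher, among them MLXIP (0.67), a relative that pairs with MLX, and MYCL (0.66). Of the noncoding genes beside MYC on chromosome 8, PVT1 fell by 0.20 against Ctrl and rose by 0.20 against Anti. CCAT1 fell by 0.65 and 1.33 in the same comparisons and CASC19 by 1.73 against Anti, the last at 0.252 CPM in CRLM1-OE and 0.846 in Anti.

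Of 25 other known MYC targets, 13 were lower and 4 higher against Ctrl, and 16 and 5 against Anti. TFRC, the transferrin receptor, was called at 2-fold in both, falling by 1.19 (41.6 ± 1.67 and 95.2 ± 4.15 CPM, SD, n = 3) and by 1.46. LDHA, lactate dehydrogenase, fell by 0.66 against Ctrl, whereas CAD, which starts pyrimidine synthesis, rose by 0.58 and the translation factor EIF4G1 by 0.50. CCND2 was also called at 2-fold, on 0 to 5 counts in the samples, with 0 in both control groups.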

How the data were processed

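Polyadenylated RNA of 9 HCT116 samples (3 groups of 3, KAPA RNA HyperPrep kit, paired reads of 151 nt) was sequenced. Per the methods, the authors trimmed the reads, dropped those under 16 nt, aligned them to GRCh38 with TopHat2 (4 mismatches, Gencode v23) and counted uniquely mapped reads per gene. The authors deposited raw counts and FPKM values, the latter scaled by exon length and mapped fragments. Strand use in counting, the version of TopHat2 and the criterion for an expressed gene are not given in the sources used here. Groups and replicate numbers come from the sample labels.

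Counts were tested for each pair of groups on its 6 samples with edgeR 4.0.16 (R 4.3.3, TMM factors, quasi-likelihood F test) over all genes with at least 1 count, with Benjamini-Hochberg adjustment. SE is the log2 fold change divided by the root of F. A call is an adjusted p of at most 0.05, and the 2-fold call also needs a fold change of 2. CPM values use TMM factors over all 9 samples. FPKM served only for ordering genes, for the cell type markers and as an alternative with limma 3.58.1 (pseudocounts 0.1 and 1). DESeq2 1.42.0, RLE factors, total counts, 2 filters, a fit of all 9 samples, a replicate block, glmTreat and leaving out each sample were the other alternatives. The scripts were tested on simulated counts. No 2 samples agreed within counting noise. At these depths a count of 0 allows up to 3 counts, or 0.06739 to 0.09008 CPM, counting error only.

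All members may be named. Values per sample were given for MYC, NCL, NPM1, FBL and the 3 members at each end of each comparison. Fold changes were given for these and for called members. Of the other lists, the genes called at 2-fold and the 2 at each end with a mean of at least 100 counts could be named, as well as MAX and MNT. The members and lists were chosen with earlier results of these data known, so that no test of the list as a whole was made. The result of 1 further list is not reported here.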

Additional observations from a re-analysis of the deposited data

How the results depend on the processing

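Every member had at least 329 counts in every sample. Of the calls, 26 of 37 (CRLM1-OE against Ctrl), 36 of 38 (CRLM1-OE against Anti) and 20 of 26 (Anti against Ctrl) held in all 15 alternatives. In CRLM1-OE against Ctrl the number of higher members, 3, was 7 with total counts and 6 in limma with either pseudocount. The number of lower members, 34, was 23 with total counts and 25 in limma with either pseudocount. Of all genes called, 69.3% were higher with total counts and 65.8 and 66.1% in limma. The median of the members, -0.265, was -0.123 with total counts, -0.240 with at least 10 counts in every sample, and -0.149 and -0.136 in limma (pseudocounts 0.1 and 1). In CRLM1-OE against Anti the median, -0.360, was -0.301 with total counts and -0.313 and -0.279 in limma. In Anti against Ctrl total counts gave 30 higher and 3 lower members and a median of 0.185. Limma there gave 28 and 27 higher members, 3 lower with either pseudocount, and medians of 0.172 and 0.167. Testing against a fold of 1.2 with glmTreat called 18, 22 and 4 members in the 3 comparisons, where none passed at 2-fold. These counts hold both directions, and the shares of all genes called by glmTreat were not taken.

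Members called in the main test that changed sign did so under total counts or limma, and did not pass there. Members not called in the main test that turned and passed were MYBBP1A (total counts 0.11, limma 0.087 and 0.083) and TSR1 (total counts 0.085) against Ctrl, and NHP2 in Anti against Ctrl (0.077, 0.063 and 0.063). In CRLM1-OE against Ctrl total counts gave NOP16 0.037, NOLC1 0.036, WDR75 0.024 and DDX56 0.0094. Limma gave NOP16 0.0091 and 0.0089, NOLC1 0.01 and 0.01, and WDR75 0.0055 and 0.005. In Anti against Ctrl NPM1 was at 0.046 with total counts and 0.032 in limma with either pseudocount, and NOP2 at 0.0084 with total counts. Total counts do not correct for the shift of all genes that the report gives, and the cause of that shift was not tested.

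Leaving out 1 sample gave 31 to 33 lower and 3 to 4 higher members in CRLM1-OE against Ctrl (medians -0.26 to -0.237), 34 to 35 and 3 to 4 in CRLM1-OE against Anti (-0.369 to -0.345), and 17 to 23 higher and 5 to 7 lower in Anti against Ctrl (0.077 to 0.097). Calls lost without 1 sample were, against Ctrl, NOP16 (-0.095 without CRLM1-OE replicate 1, -0.07 without 2, -0.08 without Ctrl replicate 1, -0.073 without 3), WDR75 (-0.11 without CRLM1-OE replicate 1, -0.082 without 3, -0.039 without Ctrl replicate 1, -0.13 without 2) and RRP1 (-0.11 without Ctrl replicate 1). Against Anti it was POLR1C (0.088 without CRLM1-OE replicate 3, 0.097 and 0.10 without Anti replicates 2 and 3). In Anti against Ctrl they were NPM1 (-0.047 without Ctrl replicate 2, -0.053 and -0.048 without Anti replicates 1 and 3), NOP2 (-0.082 and -0.085 without Ctrl replicates 2 and 3, -0.095 and -0.088 without Anti replicates 1 and 2), WDR43 (0.08 without Ctrl replicate 3, 0.079 and 0.086 without Anti replicates 1 and 3) and RRP9 (0.077 without Anti replicate 1). Deviations of samples of the same number had correlations of -0.0333 to 0.0783 over 9 pairs, and other pairs -0.0457 to 0.0751. Between CRLM1-OE and Ctrl the pairs of the same number had 0.0298, 0.0215 and 0.0783, and the other pairs -0.0457 to 0.0166. In the other pairs of groups the values of the same number held both signs. With so few samples these values cannot tell whether a number marks a shared batch, and the labels do not say so. A replicate block left 34 lower and 3 higher, 34 lower and 4 higher, and 19 higher and 7 lower members, with medians of -0.265, -0.360 and 0.080.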
